A study of Mus musculus with 6 samples.

Results

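Cytotoxic lymphocytes store serine proteases called granzymes in secretory granules together with perforin, a pore-forming protein that lets them into the target cell. The description below covers 8 such genes in mouse CD4 T cells: the granzymes Gzma, Gzmb, Gzmc and Gzmk, the perforin gene Prf1, the granule membrane protein gene Nkg7, the cathepsin W gene Ctsw and Serpinb9, an inhibitor of granzyme B. They were taken by name, as the probe sets whose platform symbol is one of these 8, out of 18193 genes with a single symbol. Together they have 10 probe sets, 2 each for Prf1 and Serpinb9, and each gene was read by whichever of its probe sets was brightest on average (mean log2 signal, all arrays).

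Furin is a proprotein convertase of the secretory pathway, and the study removed it from T cells. The samples came from C57BL/6 mice of 10 to 11 weeks. The groups labelled Furin cKO have the genotype CD4 cre Fur flox/flox, in which Cre is driven by the Cd4 promoter and acts from thymocyte development on, and the control groups have Fur flox/flox without Cre. The loxP-flanked alleles are thus shared by both. Each genotype gave 3 populations: CD4+ CD62L+ CD44- naive cells activated in culture for 2 days on plates coated with antibodies to CD3 and CD28 (5 µg/ml each), and, both isolated and used without culture, CD4+ CD62L- CD44+ memory cells and CD4+CD25+FoxP3+ regulatory cells. Each of these 6 groups is 1 Affymetrix array, so there is no replicate and no SD for any genotype difference within a population. Whether a sample pooled several mice, or whether populations came from the same mice, was not found in the labels.

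Values are MAS5 signals, a linear measure of probe set brightness that the authors scaled to a common trimmed mean on each array. Signals below 47.6, the 40th percentile over all arrays, were treated as not distinguishable from background. This value is called the floor, dimmer signals were raised to it, and a fold against a raised signal is given as "at least". A difference between genotypes is called where it reaches 2-fold.

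Several arrays do not match their labels in full. The single Furin probe set read 468.3, 2202.9 and 410.0 on the activated, memory and regulatory arrays labelled Furin cKO, against 515.8, 647.4 and 547.2 on the control arrays. In memory cells it thus read higher on the array labelled as the knockout, and where the probe set lies relative to the deleted part is unknown here, so it checks nothing about the deletion. Every direction below rests on the labels. Foxp3, the defining gene of regulatory cells, read 33.8 and 50.4 on the regulatory arrays labelled Furin cKO and control, against 1116.4 and 1358.2 on the memory arrays of the same genotypes. Other regulatory cell markers did not follow Foxp3: Il2ra read 3702.1 and 4276.9 on those regulatory arrays, against 626.8 and 1190.3 on the memory arrays. The T cell genes Cd3e, Cd3g and Cd4 were above the floor on all 6 arrays. Between 49.4% and 49.8% of probe sets reached the floor on the activated arrays and between 62.6% and 67.4% on the 4 others, and the mean signal of the bioB hybridisation controls was between 753.8 and 852.3 on the activated arrays and between 2213.0 and 4930.3 on the 4 others. Population and array handling cannot be told apart.

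Granzymes A and K are tryptases that cut after basic residues, and their genes lie side by side on mouse chromosome 13. Granzyme B cuts after aspartate and triggers apoptosis. It belongs with granzyme C to a second cluster on chromosome 14. Cathepsin C activates the granzymes inside the granule and serglycin (Srgn) holds them there. In CD4 T cells these genes are known mostly from type 1 effector cells and regulatory cells, where the T-box factors T-bet (Tbx21) and Eomes and the factor Runx3 take part in their control.

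Promoter windows, each of 300 bases (250 before and 50 from the start site on), are shown for the granzyme gene pair with the largest genotype difference and for the pair of genes that led in activated cells. They are RefSeq sequences of build GRCm38.p6 on the strand of the gene, 5′ to 3′. Gzma lies on the minus strand (chr13:113100932-113101231), Gzmk on the minus strand (chr13:113180916-113181215), Gzmb on the minus strand (chr14:56262285-56262584) and Nkg7 on the plus strand (chr7:43436888-43437187). Capitals mark matches, on either strand, to the letters of 5 motifs: AP-1 (TGANTCA), CRE (TGACGTCA), Runx (TGTGGT), T-box (TCACAC) and STAT (TTCNNNGAA).
Gzma: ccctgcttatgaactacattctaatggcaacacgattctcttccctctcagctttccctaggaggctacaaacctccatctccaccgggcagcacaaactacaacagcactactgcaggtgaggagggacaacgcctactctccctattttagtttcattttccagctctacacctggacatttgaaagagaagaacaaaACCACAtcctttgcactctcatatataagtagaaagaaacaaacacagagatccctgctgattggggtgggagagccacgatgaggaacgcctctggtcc
Gzmk: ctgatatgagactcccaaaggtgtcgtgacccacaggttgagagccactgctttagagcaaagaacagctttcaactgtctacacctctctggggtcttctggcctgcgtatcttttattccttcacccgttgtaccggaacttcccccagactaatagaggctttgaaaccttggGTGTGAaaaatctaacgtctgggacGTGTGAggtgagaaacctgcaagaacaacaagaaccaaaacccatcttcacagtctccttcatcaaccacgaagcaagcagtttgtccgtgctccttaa
Gzmb: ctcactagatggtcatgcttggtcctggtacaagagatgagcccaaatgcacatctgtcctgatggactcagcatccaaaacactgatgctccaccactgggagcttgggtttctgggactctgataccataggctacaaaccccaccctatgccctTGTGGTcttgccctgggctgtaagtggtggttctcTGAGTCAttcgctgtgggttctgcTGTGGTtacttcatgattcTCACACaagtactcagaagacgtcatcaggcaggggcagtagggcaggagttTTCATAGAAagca
Nkg7: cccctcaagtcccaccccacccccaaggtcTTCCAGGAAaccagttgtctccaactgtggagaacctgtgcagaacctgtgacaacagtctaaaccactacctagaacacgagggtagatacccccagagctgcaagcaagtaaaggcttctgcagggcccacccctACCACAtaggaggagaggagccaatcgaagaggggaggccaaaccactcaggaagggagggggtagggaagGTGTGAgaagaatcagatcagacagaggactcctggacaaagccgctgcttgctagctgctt

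The Gzma window held 1 match, to Runx at base 201. Gzmk held 2 T-box matches, at bases 177 and 202. Gzmb held the most, with Runx at bases 158 and 217, AP-1 at base 193, T-box at base 236 and STAT at base 288. Nkg7 held a STAT match at base 31, Runx at base 168 and T-box at base 239. No matches overlapped in these windows. Over 27025 RefSeq promoter windows of the same length, the share with a match was 7.93% for AP-1, 1.88% for CRE, 16.9% for Runx, 14.4% for T-box and 8.47% for STAT. Such matches describe the letters only. Of the 8 genes, 7 had a window in the table; Ctsw had no entry.

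In memory cells the array labelled Furin cKO carried far more transcript of granzymes A and K and more of granzyme B than the control array, while cathepsin W stayed within 1.5-fold and Prf1 read lower. In activated naive cells Nkg7 was the 1 gene past 2-fold, with Gzmb just short of it. In regulatory cells all 8 genes stayed within 1.5-fold. The plot of signals by population and genotype shows these values on a log axis.

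**Figure D1:**
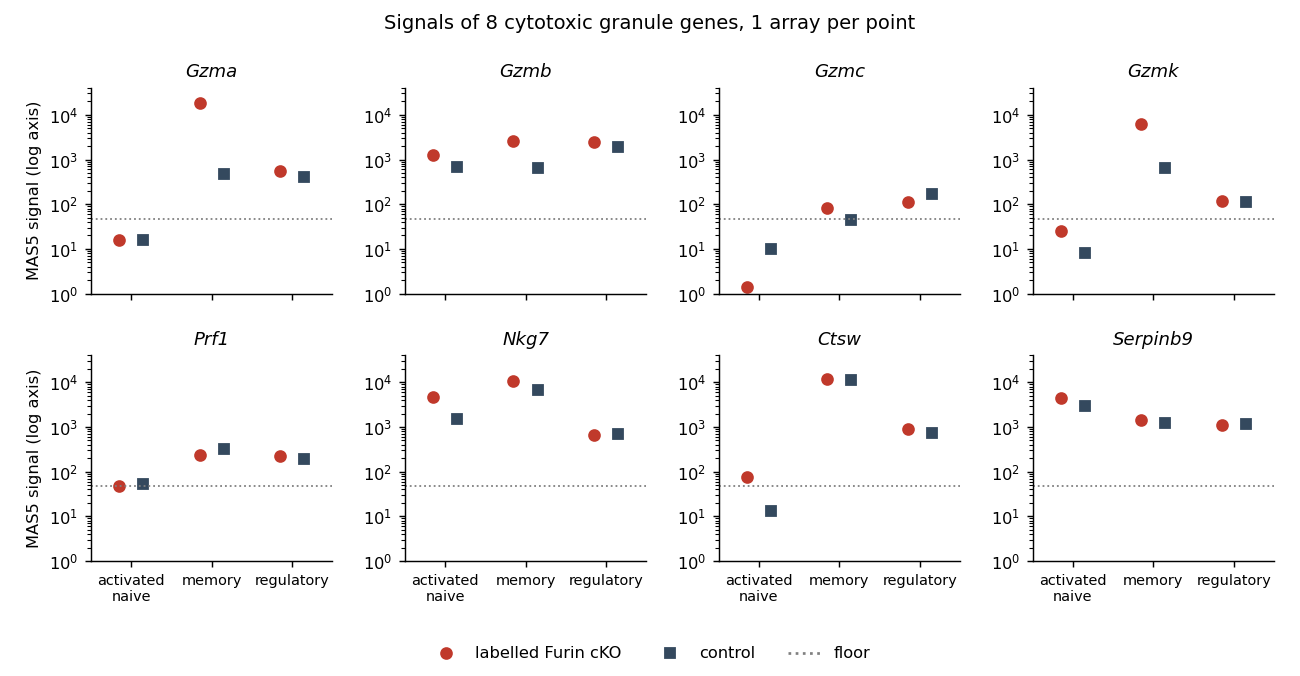
Signal of each of the 8 genes on each array (log axis), with populations along the horizontal axis, circles for the arrays labelled Furin cKO and squares for control arrays; the dotted line is the floor of 47.6. Gzma and Gzmk stand apart on the memory array labelled Furin cKO, at 18470.5 and 6215.3.

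Gzma (Entrez Gene 14938, probe set 1417898_a_at) read 18470.5 on the memory array labelled Furin cKO and 479.7 on the memory control array. This 38.5-fold difference was the largest upward one among the 14235 genes measured in memory cells. In regulatory cells Gzma read 548.9 with the Furin cKO label and 406.5 in the control, a log2 fold of 0.43, and in activated cells 15.7 and 15.9, below the floor on both arrays. Gzma was therefore near its control memory level on both regulatory arrays, and the memory array labelled Furin cKO stood far above the other arrays.

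Gzmk (Entrez Gene 14945, probe set 1422280_at) read 6215.3 on the memory array labelled Furin cKO against 655.1 on the control array. The fold of 9.49 ranked 9 of 14235 from the top. Regulatory cells gave 118.5 with the Furin cKO label and 114.7 in the control, which is a log2 fold of 0.05 (-0.05 with quantile normalization), and activated cells gave 25.4 and 8.0, below the floor. Unlike Gzma, Gzmk was dimmer on both regulatory arrays than on either memory array.

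Gzmb (Entrez Gene 14939, probe set 1419060_at) was above the floor on all 6 arrays and read higher with the Furin cKO label in each population. Memory cells gave 2547.2 with the Furin cKO label and 653.2 in the control, 3.90-fold and rank 94 of 14235 from the top. Activated cells gave 1280.2 and 674.8, 1.90-fold and rank 57 of 10756, just short of the 2-fold limit. Regulatory cells gave 2444.2 and 1925.9, 1.27-fold, a size that 34.5% of the 14587 genes measured there exceeded in 1 direction or the other. The control arrays of memory and activated cells were close to each other for Gzmb, and both were dimmer than the regulatory arrays.

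Gzmc (Entrez Gene 14940, probe set 1421256_at) was dim throughout. It read 81.5 on the memory array labelled Furin cKO and 43.8 on the control array, at least 1.71-fold higher, then 111.5 and 165.5 in regulatory cells, a log2 fold of -0.57. In activated cells it was below the floor on both arrays, at 1.4 and 10.1. The memory and regulatory folds thus had opposite signs in a dim gene.

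Prf1 (Entrez Gene 18646, probe set 1451862_a_at) did not follow the granzymes. It read 234.8 with the Furin cKO label and 327.2 in the control in memory cells (log2 fold -0.48), 221.1 and 195.6 in regulatory cells (0.18), and 48.3 and 52.3 in activated cells (-0.11), the last at the floor. The other Prf1 probe set, 1450335_at, read 43.7 and 77.9 in memory cells (log2 fold -0.71, with the dimmer signal raised to the floor; the mean of both probe sets gave -0.66), 218.3 and 200.1 in regulatory cells and 60.5 and 35.8 in activated cells. Both probe sets were lower with the Furin cKO label in memory cells and higher in regulatory cells, and they disagreed in activated cells, where the mean of both gave a log2 fold of 0.18.

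Nkg7 (Entrez Gene 72310, probe set 1450753_at), a membrane protein needed for efficient granule release, read 4775.6 in activated cells with the Furin cKO label and 1499.3 in the control. The 3.19-fold difference ranked 7 of 10756 from the top. In memory cells Nkg7 read 10513.7 and 6635.9, 1.58-fold, and in regulatory cells 667.5 and 685.8, a log2 fold of -0.04. Regulatory cells thus had the dimmest Nkg7 signals, on both arrays.

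Ctsw (Entrez Gene 13041, probe set 1422632_at), a papain-like protease of cytotoxic lymphocytes, read 11799.2 with the Furin cKO label and 11174.6 in the control in memory cells, a log2 fold of 0.08 that turned to -0.03 with quantile normalization. Regulatory cells gave 890.9 and 723.9, 1.23-fold. In activated cells it read 74.5 with the Furin cKO label and 13.0 in the control, at least 1.57-fold higher; this bound depends on the floor, and became 5.60-fold with the floor at the 20th percentile. Ctsw was bright on both memory arrays whatever the genotype label.

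Serpinb9 (Entrez Gene 20723, probe set 1422601_at), which protects the cell from its own granzyme B, was brightest in activated cells, at 4527.3 with the Furin cKO label and 2959.7 in the control, 1.53-fold. Memory cells gave 1456.0 and 1209.4 (log2 fold 0.27) and regulatory cells 1093.4 and 1141.8 (-0.06). The other probe set, 1439790_at, read 804.4, 384.8 and 417.6 on the activated, memory and regulatory arrays labelled Furin cKO, against 508.1, 277.9 and 269.0 on the control arrays. It was higher with the Furin cKO label in each population, so that in regulatory cells the 2 probe sets went opposite ways and their mean gave a log2 fold of 0.29.

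Counted together, 5 of the 8 genes could be measured in activated cells. Of these, 4 were higher with the Furin cKO label, where 48.9% of all genes measured were higher. Nkg7 was the 1 member past 2-fold, where 0.39% of all genes were at least 2-fold higher and 0.372% lower, 0.762% in all. In memory cells all 8 could be measured, 7 were higher, against 49.2% of all genes, and 3 (Gzma, Gzmk and Gzmb) were higher by 2-fold or more. Over all genes 5.62% were that much higher and 3.64% lower, 9.26% in all. In regulatory cells 5 were higher, against 48% of all genes, 3 were lower and 0 reached 2-fold. Over all genes 3.14% reached it upward and 2.12% downward, 5.26% in all. The median log2 folds of the measured members were 0.65, 0.72 and 0.11 in activated, memory and regulatory cells, beside medians of -0.00, -0.01 and -0.02 over all genes. A gene that reached the floor only on its brighter array had to differ, which was so for Ctsw in activated and Gzmc in memory cells. In bulk samples fewer expressing cells and less RNA per cell cannot be told apart.

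**Figure D2:**
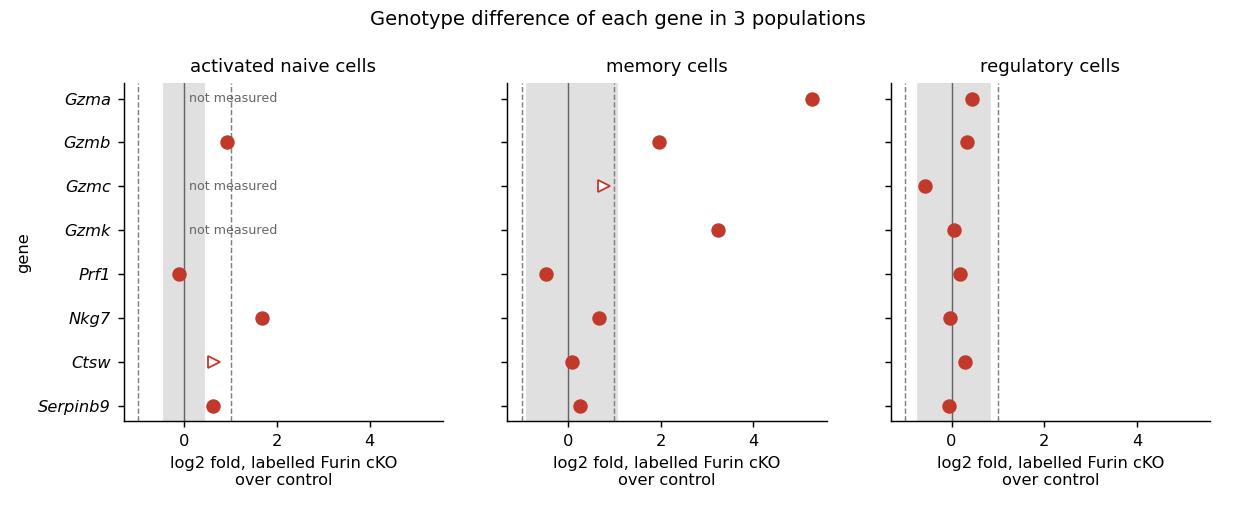
Log2 fold of each gene (rows), array labelled Furin cKO over control, in each population; open arrowheads are lower bounds, dashed lines mark 2-fold and grey bands hold the central 90% of all genes measured. Gzma, Gzmk and Gzmb lie right of the band in memory cells, Nkg7 leads in activated cells, and in regulatory cells all 8 lie inside the band.

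Marker signals of other cell types also differed between the 2 memory arrays. On the memory array labelled Furin cKO the 7 granulocyte markers with a probe set summed to 7458.2, against 771.9 on the control array, and 7 of 7 were higher. In regulatory cells they summed to 2711.0 and 1278.6, with 5 of 6 measured ones higher, and in activated cells to 124.9 and 94.7, with 0 above the floor. In memory cells the 4 plasma cell markers summed to 27600.3 with the Furin cKO label and 16214.4 in the control (2 of 4 higher) and the 4 B cell markers to 3470.8 and 2327.3 (3 of 4 higher). The 6 myeloid and dendritic cell markers summed to 6522.7 and 13188.3 (2 of 6 higher), and the 5 mast cell and basophil markers to 289.3 and 321.7.

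Lymphocytes other than CD4 T cells can carry granzymes too. The 4 NK cell markers with a probe set summed to 387.5 on the memory array labelled Furin cKO and 357.1 on the control array, of which Ncr1, the NK receptor NKp46, gave 89.3 and 75.8. Klra8 read 103.9 and 2.3, the latter below the floor, and Klra1 was below the floor on all 6 arrays. Eomes, also on the list of transcription factors below, read 175.8 and 261.6. Of the 3 NK cell markers measured in memory cells 2 were thus higher with the Furin cKO label, and the near-equal sums hide opposite directions. The 2 CD8 genes summed to 697.0 and 1070.2 and went opposite ways, with Cd8b1 at 432.7 and 853.7 and Cd8a at 264.3 and 216.5. The 3 gamma delta or innate-like T cell markers summed to 697.8 and 3720.6. Mki67, a gene of dividing cells, read 5261.4 and 1259.9 in memory cells and 2395.5 and 1074.5 in regulatory cells. It was the only 1 of 4 activated T cell markers that was higher in either population. In memory cells Tfrc read 1501.2 and 1775.5, Myc 780.0 and 952.8 and Il2ra 626.8 and 1190.3. The ratio of the beta-actin 3′ to 5′ control probe sets was 1.56 on the memory array labelled Furin cKO and 1.93 on the control array. The part of these markers and of this ratio in the granzyme folds was not tested.

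The neighbours of Gzma and Gzmk were read next; this set was chosen after the values of Gzma and Gzmk were seen. In the RefSeq gene order, the coding genes are Gpx8, Gzma, Gzmk and Esm1 in a row. Esm1, which encodes endocan, read 662.4 on the memory array labelled Furin cKO against 49.6 on the control array, 13.4-fold. Gpx8, a glutathione peroxidase family gene of the endoplasmic reticulum, read 114.8 and 4.3, at least 2.41-fold. All 4 genes of the row were brighter on the memory array labelled Furin cKO, where 49.2% of all genes were higher and 5.62% at least 2-fold higher. This count tests nothing, since Gzma and Gzmk led to the choice of the row. Gpx8 was below the floor on the control array, so it could only come out higher. On the far side of Esm1, beyond a gene without a probe set, Snx18 read 924.5 and 1217.1, and on the far side of Gpx8, Cdc20b read 21.9 and 35.0, below the floor. In regulatory cells Gpx8 and Esm1 were below the floor on both arrays.

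**Figure D3:**
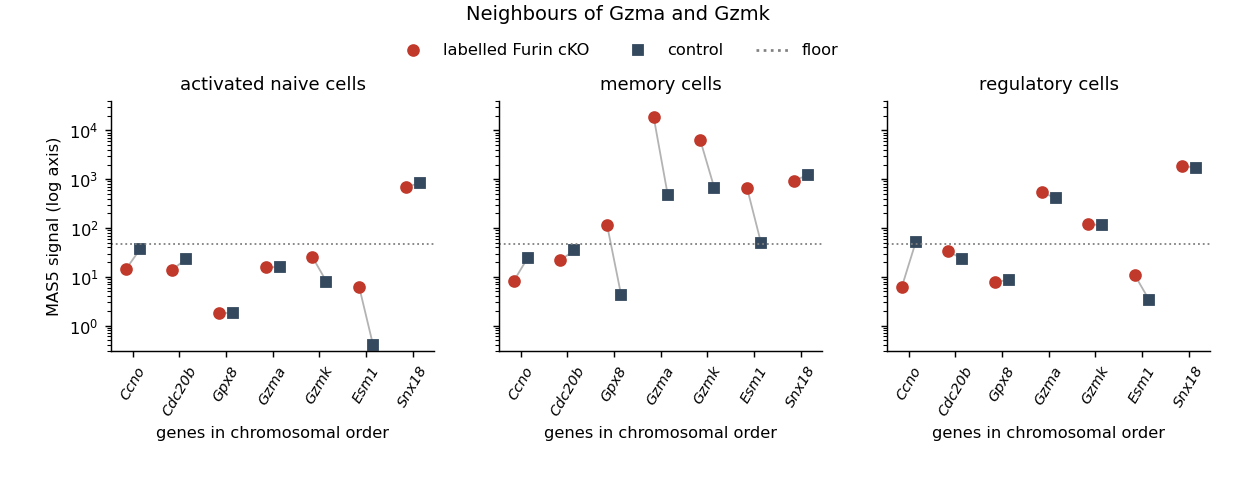
Signals (log axis) of the genes around Gzma and Gzmk, in chromosomal order without distances, on the arrays labelled Furin cKO (circles) and control (squares) of each population; the dotted line is the floor. In memory cells Gpx8, Gzma, Gzmk and Esm1 are brighter with the Furin cKO label, and Snx18 is not.

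On chromosome 14, the other granzyme genes beside Gzmb and Gzmc were near or below the floor in memory cells, so nothing is read from them. Gzmf, next to Gzmc, read 49.1 on the memory array labelled Furin cKO and 10.1 on the control array, Gzmn read 49.1 and 27.9 and Gzmg 1.6 and 5.6. Atp12a, on the other side of Gzmb, was below the floor on all 6 arrays. The nearest genes to Serpinb9 are 2 other serpins. Serpinb6b read 4107.4 with the Furin cKO label and 2634.1 in the control in activated cells, 1.56-fold, and 1774.9 and 1561.1 in memory cells, 1.14-fold. Serpinb9b read 128.5 and 48.1 in memory cells, 2.67-fold with the control signal at the floor, where Serpinb9 itself differed by 1.20-fold. In activated cells Serpinb9b was near the floor, at 42.9 and 53.7.

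Genes that act with the members were then read by list; no test compared the lists. The counts past 2-fold below stand against 0.762%, 9.26% and 5.26% of all genes in activated, memory and regulatory cells. Of the 6 other granzymes all had a probe set, and Gzmm was the only one above 144.8, the 60th percentile, with 317.7 and 218.1 in memory cells (1.46-fold). Granule proteases, matrix and membrane genes had 9 members measured in each population and 0 past 2-fold in any: Ctsc read 8079.9 with the Furin cKO label and 10585.9 in the control in activated cells and 4147.6 and 3229.1 in memory cells, and Srgn read 41790.4 and 39838.4 in memory cells. In each population named for Ctsc, 1 of its other probe sets had the opposite sign. Of the 11 genes of the exocytosis machinery, 0 passed 2-fold in any population either, which in lists of this size is near the shares above and no result about them. The largest difference in memory cells was that of Rab27a, a GTPase that docks granules, at 2277.0 and 1201.4. The medians of these 2 lists lay between -0.13 and 0.14 in the 3 populations.

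The other lists each held genes past 2-fold, where 5.62% of all genes were that much higher and 3.64% lower in memory cells, and 0.39% higher in activated cells. Of 6 inhibitors, 2 were at least 2-fold higher in memory cells with the Furin cKO label. Serpinb1a, an inhibitor of neutrophil proteases, read 668.0 against 233.1. Serpinb9b, a close relative of Serpinb9, read 128.5 against 48.1, a control signal at the floor of 47.6. In regulatory cells Serpinb9b went the other way, at 59.2 against 90.2 (1.52-fold lower). Serpinb9b and, below, Fcgr3 were named after their values were seen. The list of death ligands and cytokines had 5 of 10 at least 2-fold higher in activated and 2 of 10 in memory cells, Ifng and Ccl3 in both. In memory cells 5 of these 10 genes were lower. Fasl, the ligand of a granule-independent way of killing, was among them and read 1451.2 against 1820.1 in activated and 1432.6 against 2093.6 in memory cells; its other probe set had the opposite sign in activated cells. Of 9 transcription factors 2 were at least 2-fold higher in memory cells, Zeb2 (382.0 against 130.2) and Bhlhe40 (5580.6 against 1929.3). The T-box genes were not among them: Eomes read 175.8 with the Furin cKO label and 261.6 in the control there, and Tbx21 differed by 1.06-fold, higher in the control. Of 13 surface receptors and trafficking genes 5 passed 2-fold upward and 2 downward in memory cells. The higher ones were Cx3cr1, S1pr5, Il18r1, Il18rap and Fcgr3, of which S1pr5 and Fcgr3 did not reach the floor in the control. The lower ones were the NK receptors Klrk1 and Klrc1. In regulatory cells Klrk1 went the other way, at 173.1 with the Furin cKO label and 70.2 in the control (2.47-fold higher), and Zeb2 read 149.8 and 62.2 (2.41-fold higher), where 3.14% of all genes were that much higher. These were the only genes of the 8 lists past 2-fold in regulatory cells. In activated cells 0 inhibitors, transcription factors or receptors passed 2-fold. Both T-box genes were higher with the Furin cKO label there, Tbx21 at 2140.0 against 1207.6 (1.77-fold) and Eomes at 186.8 against 170.1 (1.10-fold).

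**Figure D4:**
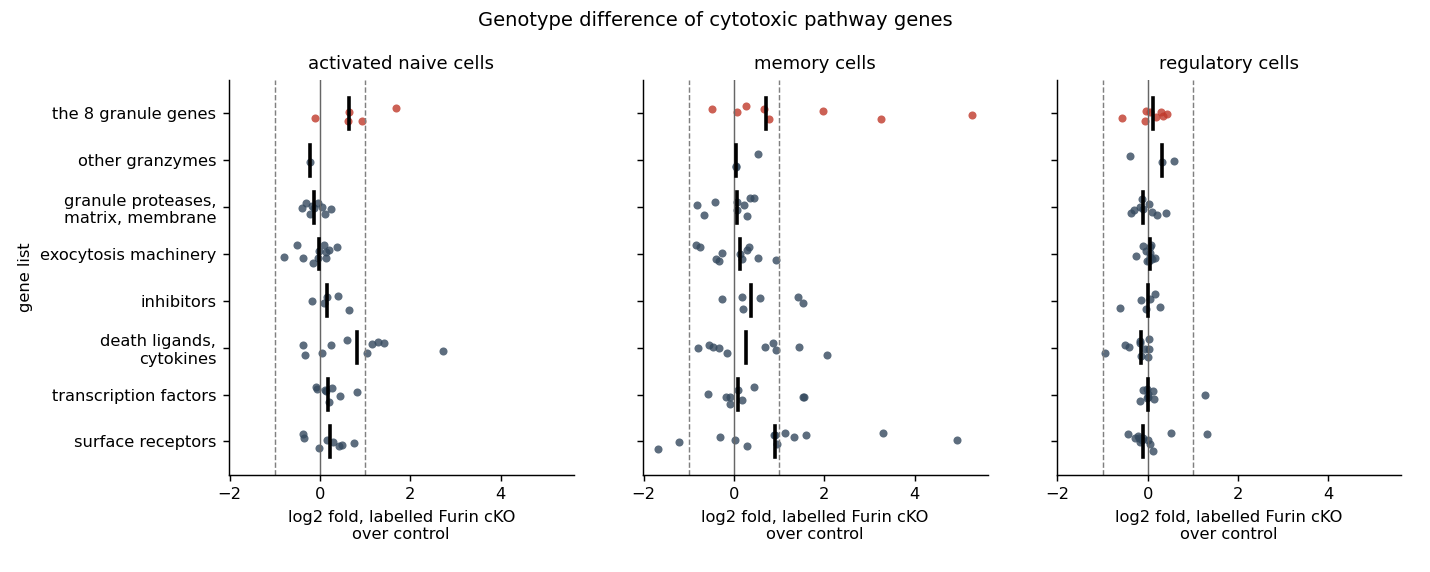
Log2 folds, array labelled Furin cKO over control, of the measured members of 8 gene lists (rows) in each population; each dot is a gene, black bars are list medians, dashed lines mark 2-fold and lower bounds are drawn at their bound. The granule protease and exocytosis lists stay within 2-fold in each population, and the members reach a log2 fold of 5.27 in memory cells.

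In a limma fit of all 6 arrays with population and genotype as factors, the genotype coefficient passed an adjusted p of 0.05 for 0 of the 8 genes and 0 of 15808 genes, a share of 0% (450 genes, 2.85%, had an unadjusted p under 0.05). This coefficient is the mean genotype difference over the 3 populations. Its p sets that mean against how far the difference varied between populations, with 2 residual degrees of freedom. For each gene limma also drew this spread toward that of all genes. The p-values and 95% intervals from the fit thus do not rest on a gene's own spread alone. The coefficient was 1.08 for Gzmb (95% interval 0.15 to 2.01, adjusted p = 0.820 by limma), with 3 of 3 populations higher. For Gzma it was 1.90 (-1.26 to 5.06), with 2 of 2 measured populations higher and nearly all of the size from memory cells: without both memory arrays the coefficient was 0.22. For Gzmk the same step left 0.02 of 1.10. Both genes were below the floor on both activated arrays, so their genotype difference there entered the fit as 0. What was left without the memory arrays came from regulatory cells alone.

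The same fit compared populations over both genotypes, and most members were dimmer in activated naive cells than in memory cells. In activated cells over memory cells 5 genes were lower and 1 higher at an adjusted p under 0.05, where 27% and 17.4% of all genes were lower and higher (44.4% in all). Population arrays differ in the share of probe sets above the floor, and the median log2 difference over all genes was -0.21, which quantile or cyclic loess normalization set to 0.00. Ctsw was at least 193-fold lower (log2 difference -7.59, adjusted p = 0.0017), Gzma at least 62.5-fold (-5.97, adjusted p = 0.0315) and Gzmk at least 42.4-fold lower (-5.41, adjusted p = 0.0123), since activated signals were below the floor on both arrays for Gzma and Gzmk and on 1 for Ctsw. These bounds move with the floor: at the 20th percentile the log2 differences of Ctsw, Gzma and Gzmk were -8.51, -7.56 and -6.78, and at the 60th -6.31, -4.36 and -3.80. Prf1 was 5.51-fold lower (-2.46, adjusted p = 0.0027), a size that depended on the setting, with log2 differences of -1.58 (quantile), -1.71 (cyclic loess), -1.33 (mean of probe sets) and -0.94 (floor at the 60th percentile), all past the threshold. Nkg7 was 3.12-fold lower (-1.64, adjusted p = 0.0423). Serpinb9 went the other way, 2.76-fold higher in activated cells (1.46, adjusted p = 0.0082).

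Without the memory array labelled Furin cKO the log2 difference of activated over memory cells was -3.44 for Gzma and -3.79 for Gzmk. Nkg7 and Serpinb9 kept their size, at -1.72 and 1.46, but not their calls. That fit has 1 memory array and fewer residual degrees of freedom, so the lost calls cannot be laid to the array alone. The Nkg7 call was also lost with the floor at the 20th percentile (adjusted p = 0.0713), with the mean of probe sets (0.0524) and with population as the only factor (0.0751), at log2 differences of -1.64. Gzmb (log2 difference -0.47, 95% interval -1.61 to 0.67) and Gzmc (-0.39, -1.35 to 0.57) did not pass. Without that array they were 0.19 and 0.14, and Gzmc passed with the floor at the 20th percentile (-2.17, adjusted p = 0.0304) and with the floor of each array (-1.32, adjusted p = 0.0118).

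In activated cells over regulatory cells, 3 genes were lower and 2 higher at an adjusted p under 0.05, where 26.5% and 18.1% of all genes were lower and higher (44.7% in all) and the median log2 difference was -0.23; the activated arrays are the same as above. Ctsw was at least 13.5-fold lower (adjusted p = 0.0019), Prf1 4.14-fold lower (adjusted p = 0.0039) and Gzmc at least 2.85-fold lower (adjusted p = 0.0299). Nkg7 was 3.95-fold higher (adjusted p = 0.0256) and Serpinb9 3.28-fold higher (adjusted p = 0.0059). The Prf1 log2 difference was -2.05, and -1.09 and -1.20 with quantile and cyclic loess normalization. Gzmb was 2.33-fold lower without passing (adjusted p = 0.0808), and passed with the floor of each array (0.0373), with a mean-variance trend (0.0494) and without both memory arrays (0.0093). The memory array labelled Furin cKO is in the fit but not among the arrays compared here. Leaving it out kept the differences of Nkg7 (1.98) and Serpinb9 (1.71) but not their calls, while Gzma and Gzmk gained calls. The fit without it has fewer residual degrees of freedom, so these changes cannot be laid to the array alone. Gzma also passed with the floor of each array (adjusted p = 0.0343 by limma). The bounds moved with the floor, to log2 differences of -4.67 for Ctsw and -3.35 for Gzmc at the 20th percentile and -2.47 and -0.10 at the 60th, where Gzmc and Prf1 (-0.52) did not pass (adjusted p = 0.562 and 0.0736).

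In regulatory cells over memory cells 0 of the 8 genes and 0% of all genes passed in limma, although 3358 genes (21.2%) had an unadjusted p under 0.05. The largest differences were those of Gzmk (log2 difference -4.11, 95% interval -6.59 to -1.63, adjusted p = 0.119), Ctsw (-3.84, -4.36 to -3.32, adjusted p = 0.0506), and Nkg7 (-3.63, -4.82 to -2.44, adjusted p = 0.0666), all dimmer on both regulatory arrays than on both memory arrays. Ctsw and Nkg7 passed under 4 other settings, among them population as the only factor (adjusted p = 0.0172 and 0.0454). Gzma gave -2.66 (-6.53 to 1.22), which was -0.13 without the memory array labelled Furin cKO. Gzmb gave 0.75 (-0.39 to 1.89), Prf1 -0.41 and Serpinb9 -0.25, with intervals that include 0. The Prf1 difference turned to 0.71 with the mean of probe sets. Gzmc gave 1.12 (0.16 to 2.09, adjusted p = 0.189), higher in regulatory cells with an interval that excludes 0.

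**Figure D5:**
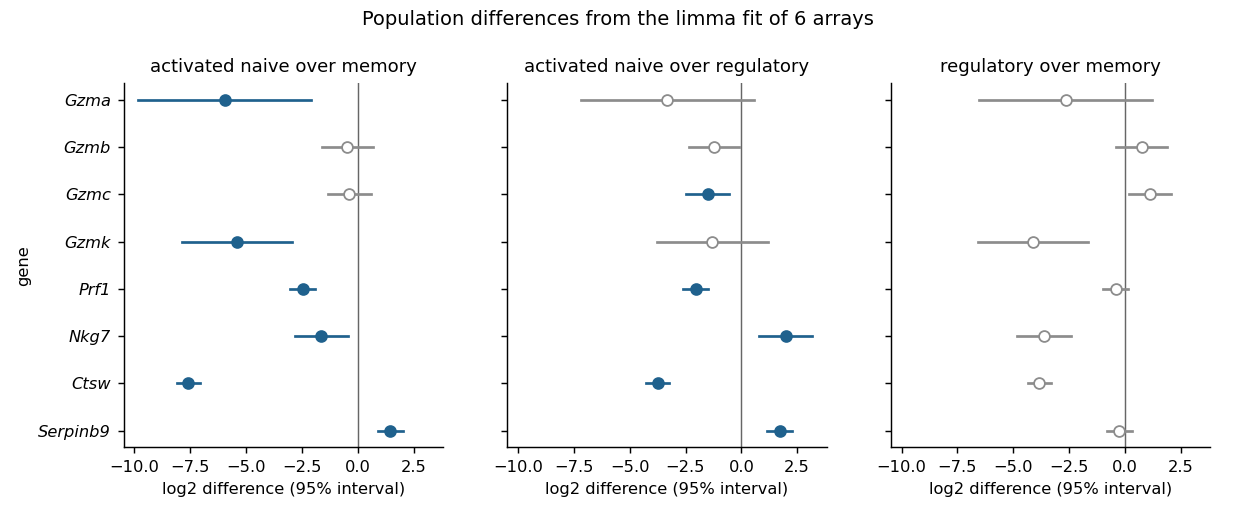
Log2 difference between populations (points) with 95% intervals (lines) for each gene (rows), from the limma fit of 6 arrays; filled blue points passed an adjusted p of 0.05. Serpinb9 lies right of 0 in both comparisons of activated cells, while Ctsw lies left of 0 in all 3 panels. Prf1 does too for the probe set shown, but the mean of its probe sets is 0.71 for regulatory over memory cells.

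The order of levels thus differed between members. Ctsw ran from memory through regulatory to activated cells. The last step and the step from memory to activated cells passed the threshold, and the step from memory to regulatory cells did not. Nkg7 ran from memory through activated to regulatory cells. Its largest difference, between regulatory and memory cells, missed the threshold (adjusted p = 0.0666 by limma) but passed under 4 other settings. The 2 smaller ones passed but lost their calls without the memory array labelled Furin cKO, in a fit with fewer residual degrees of freedom. Serpinb9 was highest in activated cells, and the difference between memory and regulatory cells did not pass. Prf1 was lowest in activated cells, and the sign between memory and regulatory cells depended on the probe set. For Gzmb no step passed in the fit described first. The step between activated and regulatory cells passed with the floor of each array, with a mean-variance trend and without both memory arrays.

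Profiles over the 6 arrays were also compared with those of 10350 other genes above 144.8 on some array, by the root mean square difference of log2 signals after each gene's own mean was removed. The genes closest to Gzma were Gzmk (1.04), S100a9 (1.10) and S100a8 (1.16), where 0 genes came within 0.5; S100a9, one of the granulocyte markers above, read 2868.1 on the memory array labelled Furin cKO and 198.5 on the control array. Gzmk was closest to Ctla2a (0.82), an inhibitor of cathepsin L, and to Il18rap (0.87). Nkg7 was closest to Tbx21 (0.45) and Ifng (0.51). Ctsw was closest to H2-Aa (0.52), an MHC class II gene, and Ccl5 (0.58). The profiles of Gzmb, Gzmc, Prf1 and Serpinb9 had 100, 750, 1275 and 1961 genes within 0.5. These profiles also varied less, with log2 SDs over the 6 arrays of 0.81, 0.70, 1.09 and 0.78. For Gzma, Gzmk, Nkg7 and Ctsw the SDs were 2.88, 2.49, 1.57 and 3.11. The measure is not scaled to this spread, so the counts do not rank how particular a profile is. All of these comparisons rest on the same 6 arrays.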

How the data were processed

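The deposited table holds 1 intensity per probe set and array, made by the authors with MAS5, per the submitters' processing notes; no version or genome build was found in the labels. In each of the 6 arrays the mean after trimming 2% at each end was 500.003, so arrays had been scaled. The number of arrays limits the precision. With 1 array per group, p-values rest on the spread left after population and genotype, which may be technical. For each gene limma drew that spread toward the one shared by all genes. The spread left holds any genotype difference that varied between populations, and it is not the spread between animals.

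Of 45101 probe sets, 64 were controls, 34945 had 1 symbol in the platform annotation, 932 several and 9160 none. Entrez identifiers of 34741 of the 34945 matched RefSeq (GRCm38.p6, used for names, gene order and promoter sequences). Within a gene, probe sets were ranked on log2 signals raised to the floor, the pooled 40th percentile. A first ranking did not raise them. It was changed after its gene counts were seen to differ from those of an earlier analysis of these data, and it is kept as an alternative: another probe set stood for 619 genes, 0 of them members, and 15720 genes were tested. Populations were compared with limma 3.58.1 in R 4.3.3 (lmFit, eBayes), Benjamini-Hochberg adjusted over the 15808 genes that reached the floor on at least 1 array. The fit was also run on simulated data with independent noise (SD 0.25 in log2) and 200 genes raised in memory cells. For regulatory over memory cells it called 56.0% of them at a log2 change of 1 and 100% at 2 and at 3. The simulation held no genotype difference, so it does not show how the fit performs on these 6 arrays. Figures were drawn with matplotlib 3.10.9.

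The members and the gene lists were chosen with earlier results of these data known. Named were Furin, all members and markers, list members at least 2-fold apart with a signal of 144.8 or more or past the limma threshold, those needed to describe a list, and the 3 genes closest to each member. Chromosomal neighbours were added later. Clone and predicted names were left out of the closest genes.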

Additional observations from a re-analysis of the deposited data

Results flagged for a closer look

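For 4 genes the genotype difference had opposite signs in 2 populations, each resting on 1 array per genotype, and the difference between populations was not tested. Gzmc had a log2 fold, Furin cKO label over control, of 0.78 in memory cells (a lower bound) and -0.57 in regulatory cells. Prf1 had -0.11 in activated, -0.48 in memory and 0.18 in regulatory cells. Nkg7 had 1.67 in activated, 0.66 in memory and -0.039 in regulatory cells, and Serpinb9 had 0.61 in activated, 0.27 in memory and -0.062 in regulatory cells. The opposite sign of Serpinb9 holds only for the probe set used: the other gave 0.63 in regulatory cells and the mean of both 0.29. For Prf1 the sign in activated cells turned with the mean of both probe sets (0.18). Except for Nkg7 in activated cells, all of these are under 2-fold, and no size was required for a gene to be listed here.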

How the results depend on the processing

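The genotype folds of members were recomputed under 7 alternatives: quantile and cyclic loess normalization, the floor at the 20th or 60th percentile or of each array, the mean over probe sets, and probe sets ranked without the floor, the last chosen after seeing the data. Of these recomputed folds 140 moved by less than 1.5-fold, and the other 3 were those of Ctsw in activated cells, with log2 folds of 1.29 (quantile), 2.49 (floor at the 20th percentile) and 1.51 (floor of each array). Gzma in memory cells ranged from 34.9-fold to 40.9-fold, Gzmk from 9.49-fold to 10.3-fold and Gzmb from 3.90-fold to 4.44-fold. In activated cells 2 members were past 2-fold with quantile or cyclic loess normalization and with a 20th percentile floor or that of each array, where 1 was before. Ranking probe sets without the floor left 77, 1288 and 742 genes past 2-fold in activated, memory and regulatory cells, against 82, 1318 and 767.

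Counts over all genes depended on the floor, since fewer or more dim genes enter. In activated cells 42 genes were at least 2-fold higher and 40 lower; the counts were 71 higher with quantile normalization, 118 and 84 with cyclic loess, 471 and 442 at the 20th and 17 and 9 at the 60th percentile, 122 and 92 with the floor of each array, and 68 and 63 with the mean of probe sets. In memory cells 800 and 518 became 2197 and 1512 at the 20th and 258 and 221 at the 60th percentile. In regulatory cells 458 and 309 became 281 higher with quantile normalization, 220 and 202 with cyclic loess, 1738 and 1450 at the 20th and 39 and 39 at the 60th percentile, and 259 and 145 with the floor of each array. There 59.7% of the 2-fold calls were higher, against 49.0% with quantile normalization.

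In regulatory over memory cells 0 genes passed, but 448 did at a 60th percentile floor, 215 with the floor of each array, 655 with population as the only factor and 169 with a mean-variance trend, with 2 members (Ctsw and Nkg7) in each case. In activated over memory cells 7013 genes passed, 11172 with the floor of each array and 4196 without the memory array labelled Furin cKO. In activated over regulatory cells 7063 of 15808 genes and 5 members passed. With the floor of each array 11260 of 15154 genes and 7 members passed. At a 60th percentile floor 6457 of 10725 genes and 3 members did. Without both memory arrays 7964 of 14835 genes and 8 members passed, so most genes passed there too. That last alternative was chosen after seeing the data, as were the fits without both regulatory arrays. Higher calls made up 39.1% of calls for activated over memory and 40.6% for activated over regulatory cells, against 51.5% and 55.2% with quantile and 52.7% and 56.6% with cyclic loess normalization. The cause of these changes was not tested. No paired analysis was possible because each group holds 1 array and the labels give no replicate numbers.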

Other observations

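Cxcr3, a chemokine receptor of type 1 effector cells, read 27796.2 on the memory array labelled Furin cKO and 21121.4 on its control, 7544.7 and 8833.8 in regulatory cells, and 256.6 and 230.0 in activated cells. Klrg1, a receptor of terminally differentiated effector cells, read 6319.5 and 3240.8 in memory cells, 4716.0 and 5317.2 in regulatory cells and 80.0 and 37.6 in activated cells. Both genes were thus bright in the freshly isolated populations of either genotype label. Zbtb16, which marks innate-like T cells, read 148.4 on the memory array labelled Furin cKO and 821.5 on its control, and Trgv1, a gamma delta receptor segment, 542.8 and 2827.7, the direction opposite to that of Gzma and Gzmk on the same arrays.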
